A study of Saccharomyces cerevisiae with 18 samples.

Results

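The transcriptional response of yeast to 2 *E. arvense* (horsetail) extracts of the same geographic origin, labelled USA7 and USA2, was compared directly. The comparison used 4 of the 18 arrays of the series, chosen by their labels alone, 2 of cultures treated with USA7 and 2 of cultures treated with USA2. No array of untreated cells enters the difference between them. All cultures were of the *S. cerevisiae* laboratory strain BY4743, a diploid that the methods give as homozygous for the his3Δ1, leu2Δ0 and ura3Δ0 deletions and heterozygous at MET15 and LYS2. Log-phase cells in minimal medium with uracil were exposed to dried extract at 2.5 mg/mL for 20 min. Both products were commercial water extracts, whose dicalcium phosphate excipient was removed with aqueous methanol before use. The labels describe each pair of cultures as biological duplicates, and both pairs carry the same date, called batch 2 here. With 2 cultures per extract and 1 preparation of each extract, the comparison describes these preparations and not American horsetail in general.

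Yeast meets many foreign small molecules with a network of zinc-cluster transcription factors, among them Pdr1, Pdr3, Yrr1 and Yrm1, that turn on genes for drug efflux. Their targets include ABC transporters such as Snq2 and Yor1 and proton-driven transporters of the major facilitator superfamily such as Flr1. A separate set of NADPH-dependent reductases, to which the old yellow enzymes belong, acts on quinones and on unsaturated aldehydes and ketones. Extracellular inositol is sensed through the repressor Opi1, which acts on INO1 and other genes of phospholipid synthesis.

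On the arrays used, a group of short probes, called a probe set, reads each transcript, and values are log2 signals, so that a difference of 1 is 2-fold. The 4 arrays had medians of 9.6 and values between 2.82 and 14.42. Over 5716 yeast probe sets, the difference between the USA2 arrays had an SD of 0.185 and that between the USA7 arrays an SD of 0.194, whereas a USA7 array differed from a USA2 array with an SD of 0.23 to 0.25. The signals of the deleted LEU2 and URA3 lay between 3.18 and 3.87 on the 4 arrays, above at most 2.47% of the probe sets. HIS3 read 11.68 to 11.81, but the his3 allele keeps part of the gene, so this signal checks nothing. Of 14 genes that cells with both mating types keep low, 0 were called, with log2 differences of -0.20 to 0.40. Their summed linear signal was 1842 to 1997 with USA2 and 1843 to 2004 with USA7. RME1, at 9.59 to 9.91, was not low on these arrays and weighs most in this sum. The difference between probe sets at the 3′ and 5′ ends, a measure of RNA integrity and labelling, was 0.26 to 0.33 for ACT1 and -2.83 to -2.46 for 18S rRNA on the 4 arrays. For thr, a bacterial RNA added as a labelling control, it was 1.79 and 1.62 with USA2 and 1.25 and 1.23 with USA7. For dap, another such RNA, it was 1.69 and 1.8 with USA2 and 1.4 and 1.61 with USA7. The extracts overlapped for phe (0.54 and 0.63, then 0.56 and 0.55) and for lys (-0.78 and -0.46, then -0.6 and 0.06). The part of these differences in the results was not tested. None of 137 Affymetrix control probe sets was called when these were kept in the test.

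The transcriptomes elicited by the 2 American extracts were close to each other, apart from a small group of genes that were higher with USA7. With an adjusted p under 0.05 in limma (Benjamini-Hochberg adjustment over all 5716 probe sets, spread pooled over the 7 conditions), 10 probe sets were called, which is 0.175% of those tested. All 10 were higher with USA7 (0.175%), and 0 were lower (0%), although 70 probe sets were lower and 160 higher at an unadjusted p under 0.05. Among the 10, 7 differed by more than 2-fold and 6 by more than 4-fold. They comprised YLL056C, AZR1, YHK8, CIS1, YLR046C, OYE3, YRR1, FUI1, YOR161C-C and 1 probe set without a gene name. The median absolute log2 difference over all probe sets was 0.10, with a median SE of 0.15. For 5534 probe sets (96.8%) the 95% interval of the difference lay within 1 of 0, and for 3702 (64.8%) it lay within 0.5. The plot of the levels with the 2 extracts shows this as a narrow diagonal with a few points far above it.

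**Figure D1:**
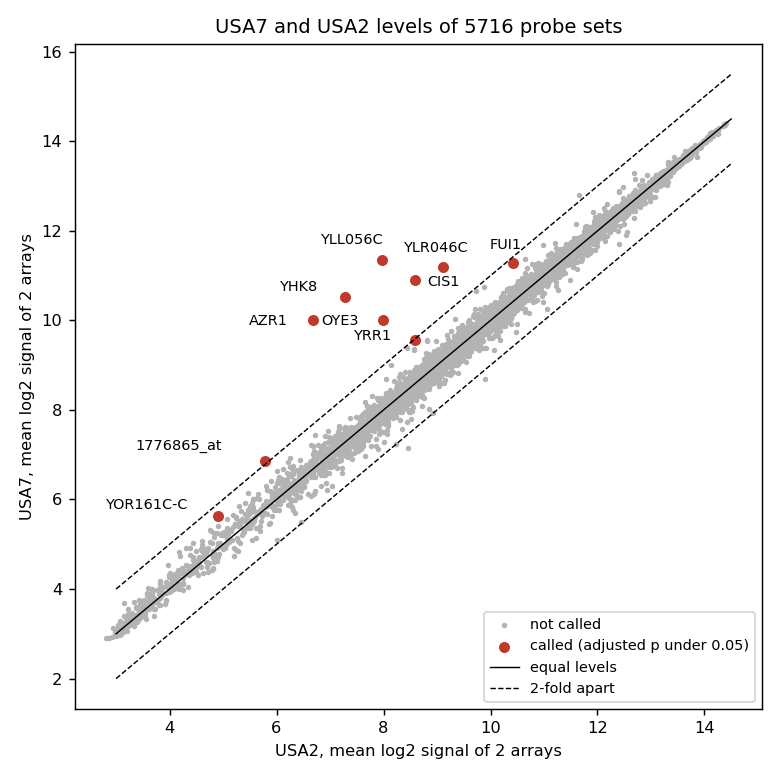
Mean log2 signal of the 2 USA7 arrays (vertical) against that of the 2 USA2 arrays (horizontal) for 5716 probe sets, with the 10 called probe sets in red and named. The solid line marks equal levels and the dashed lines a 2-fold difference. The called probe sets all lie above the solid line, and 6 of them by more than 4-fold.

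The spread was also estimated from the 14 arrays of batch 2 alone, which hold both extracts. Within this batch 21 probe sets were called (0.367%), of which 18 were higher (0.315%) and 3 lower (0.0525%) with USA7, and all 10 probe sets above were among them. The log2 differences were the same in both fits, since they come from the same 4 arrays, and the median SE was 0.11 in place of 0.15. The added genes are given below with the gene groups to which they belong.

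The largest differences were those of 3 genes that were each about 10-fold higher with USA7. YLL056C, whose transcription is known to be activated by Yrr1 and its paralog Yrm1, had log2 signals of 8.02 and 7.93 with USA2 and of 11.28 and 11.43 with USA7. AZR1, the gene of a major facilitator transporter of the plasma membrane involved in resistance to azole drugs, read 6.81 and 6.57 with USA2 and 9.93 and 10.09 with USA7. YHK8, the gene of a presumed drug antiporter of the same superfamily, read 7.24 and 7.33 with USA2 and 10.41 and 10.65 with USA7. For each of these genes the duplicates lay within 0.25 of each other and the extracts did not overlap. The log2 differences were 3.38 (SE 0.20, adjusted p = 2.59e-07 by limma) for YLL056C, 3.32 (SE 0.23, adjusted p = 1.37e-06) for AZR1 and 3.24 (SE 0.30, adjusted p = 2.96e-05) for YHK8. These correspond to 10.4-fold, 9.97-fold and 9.45-fold.

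CIS1, YLR046C and OYE3 formed a second tier at 4- to 5-fold. CIS1 (YLR346C), whose expression is regulated by factors of pleiotropic drug resistance, read 8.55 and 8.63 with USA2 and 10.93 and 10.86 with USA7. YLR046C, a membrane protein gene related to the lipid exporter gene RSB1, read 9.10 and 9.14 with USA2 and 11.15 and 11.25 with USA7. OYE3, the gene of an old yellow enzyme, an NADPH oxidoreductase, read 8.05 and 7.92 with USA2 and 10.09 and 9.93 with USA7. Again every USA7 array was above both USA2 arrays by far more than the gap between duplicates. The log2 differences by limma were 2.31 for CIS1 (SE 0.25, adjusted p = 0.000223), 2.08 for YLR046C (SE 0.12, adjusted p = 2.59e-07) and 2.03 for OYE3 (SE 0.16, adjusted p = 5.23e-06).

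The remaining called probe sets differed by 2.1-fold or less. YRR1, which encodes one of the zinc-cluster factors of the drug resistance network, read 8.55 and 8.64 with USA2 and 9.58 and 9.55 with USA7. Its log2 difference was 0.97 (SE 0.11, adjusted p = 0.000357 by limma). FUI1, the gene of the uridine permease, read 10.39 and 10.46 with USA2 and 11.33 and 11.23 with USA7, a log2 difference of 0.86 (SE 0.12, adjusted p = 0.00412). The unnamed probe set 1776865_at read 5.75 and 5.83 with USA2 and 6.75 and 6.97 with USA7, and differed by 1.07 (SE 0.18, adjusted p = 0.0188). YOR161C-C, a small open reading frame, read 4.89 and 4.93 with USA2 and 5.71 and 5.55 with USA7, a difference of 0.72 (SE 0.12, adjusted p = 0.0263). The call of FUI1 was lost without the first USA2 or the first USA7 array, and those of 1776865_at and YOR161C-C without any one of the 4 arrays. Over all alternatives their adjusted p by limma reached 0.104, 0.291 and 0.539, whereas the other 7 were called in every alternative that tested them.

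YOR161C-C lies next to YRR1 in the RefSeq annotation of assembly R64, and the 2 probe sets are the only called pair among neighbours. Each of the 9 named genes was looked at together with the genes directly beside it. Of these 18 neighbour places, all were measured, and apart from YRR1 and YOR161C-C themselves their log2 differences ranged from -0.33 to 0.42 with none called. The highest was that of DAP1 beside OYE3, at 0.42 (SE 0.10, adjusted p = 0.259 by limma). The strand of the signal and the position of the probes were not examined, so that transcription across the boundary of YRR1 and YOR161C-C and separate transcripts cannot be told apart. In bulk RNA, more cells with a transcript and more of it per cell cannot be told apart either.

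The level of each called probe set was set beside those with the other conditions of the series. The USA7 mean was the highest of the 7 conditions for 10 of the 10, and both USA7 arrays were above each of the other 16 arrays. The USA2 arrays were above the 4 arrays of untreated cells for 8 of the 10, the exceptions being FUI1 and 1776865_at. For YLR046C this held by a very small margin, at 9.103 against 9.1. AZR1 ranged from 3.40 to 3.89 in untreated cells, read 3.59 and 3.82 with EUROPE11, and lay between 5.72 and 6.55 with CHINA8, just below USA2. YLR046C showed a different pattern. In untreated cells and with the extracts other than USA7 and USA2 it lay between 8.76 and 9.28, a range that holds both USA2 arrays. YLL056C was next highest with CHINA8 (8.21 to 8.73), above both USA2 arrays. FUI1 with USA2 (10.39 and 10.46) was within the range of untreated cells (10.23 to 10.60), below both arrays of each other extract and the 4 of CHINA8 (10.75 to 11.16). OYE3 lay between 6.15 and 6.58 in untreated cells and between 7.32 and 8.15 with the 5 extracts other than USA7. YRR1 lay between 7.40 and 7.72 in untreated cells and between 8.11 and 8.38 with CHINA8, with the USA2 arrays just above the latter range. These levels are given as a description, and no test was made of them. All 10 were called as higher with USA7, so that USA7 lay above USA2 was given by the selection. How many of all 5716 probe sets had USA7 highest, or USA2 above untreated cells, was not counted. The plot of the called probe sets by condition shows USA7 apart from all other arrays in each panel.

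**Figure D2:**
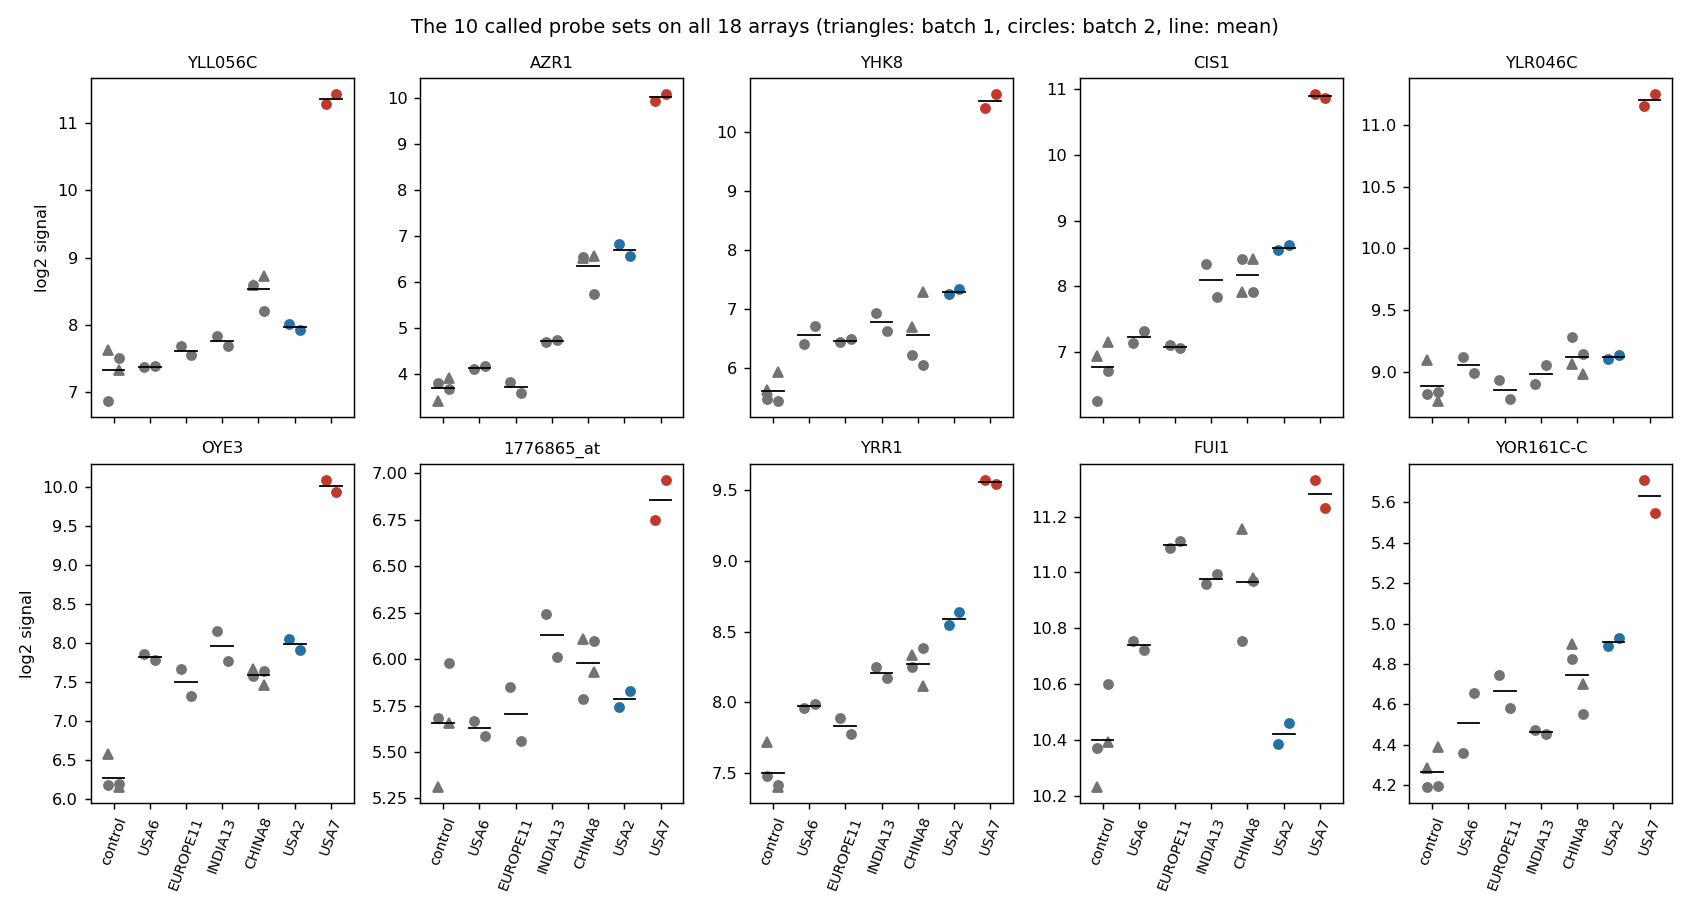
Log2 signal (vertical) of the 10 called probe sets on all 18 arrays, by condition (horizontal), with USA7 in red, USA2 in blue and the other arrays in grey. Triangles are arrays of batch 1, circles those of batch 2 and lines the condition means (n = 4 for control and CHINA8, n = 2 for the others). In every panel both USA7 arrays lie above the other 16.

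The multidrug transport list, which also holds regulator genes and other genes under their control, had the most calls. Of the 44 probe sets of this list, 5 were called higher (11.4%, against 0.175% of all) and 0 lower, with a median log2 difference of 0.19 against -0.0008 for all probe sets. Those called were YLL056C, AZR1, YHK8, CIS1 and YRR1. Only AZR1 and YHK8 are described above as transporter genes. YRR1 is a regulator gene, and YLL056C and CIS1 are described only as genes controlled by such factors. In 28 members both USA7 arrays were above both USA2 arrays, and in 0 they were both below, whereas over all probe sets this was so for 1290 and 1117. Within batch 2 the called members were 7 of 44, through SNG1 and QDR2, against 0.367% of all probe sets. This and the other lists were chosen with earlier results of these data known. These counts therefore describe the list and are no test of it as a group.

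Among the other members of this list, values were unequal. SNG1, a gene of resistance to nitrosoguanidine, read 11.64 and 11.68 with USA2 and 12.59 and 13.00 with USA7, a log2 difference of 1.14 that missed the threshold (SE 0.22, adjusted p = 0.069 by limma) and was called within batch 2 (SE 0.18, adjusted p = 0.0264) and when certain single control or CHINA8 arrays were left out (lowest adjusted p = 0.0162). RSB1, which encodes an exporter of sphingoid bases, differed by 1.03 (SE 0.29, adjusted p = 0.432), and its relative RTA1 by 0.66 (SE 0.20, adjusted p = 0.582). Among the major facilitator genes, the difference was 0.56 for QDR2 (SE 0.15), 0.52 for FLR1 (SE 0.13) and 0.29 for ATR1 (SE 0.19), none of which was called over all arrays. Among the ABC transporter genes, the difference was 0.51 for SNQ2 (SE 0.17, called only without the control and CHINA8 arrays of batch 2, adjusted p = 0.0323), 0.50 for YOR1 (SE 0.21), 0.18 for PDR5 (SE 0.15), 0.14 for YCF1 (SE 0.11) and 0.12 for PDR12 (SE 0.17). PDR5 encodes the major drug efflux pump of yeast, and its 95% interval was -0.13 to 0.50. A 2-fold difference of PDR5 lay outside this interval.

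Of the 7 regulator genes named here, YRR1 was the only one called. PDR1, PDR3 and YAP1 were preset, whereas YRM1, PDR8 and STB5 were chosen after their values were seen. YRM1, the paralog of YRR1, read 8.93 and 8.89 with USA2 and 9.04 and 9.01 with USA7, a log2 difference of 0.11 (95% interval -0.06 to 0.27). The differences of PDR1, PDR3 and PDR8 were 0.06, 0.14 and 0.21, with 95% intervals of -0.18 to 0.30, -0.14 to 0.42 and -0.01 to 0.42. STB5, a zinc-cluster factor that acts on NADPH supply, differed by 0.35 (SE 0.14, adjusted p = 0.999 by limma). YAP1, the gene of the main factor of the oxidative stress response, read 9.03 and 9.05 with USA2 and 9.18 and 9.19 with USA7, a difference of 0.15 (95% interval -0.05 to 0.34).

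The quinone and aldehyde reductase list held OYE3 as its 1 called member of 36 probe sets (2.78%, against 0.175% of all). The median log2 difference of the list was 0.11. OYE2, the paralog of OYE3, had a higher signal and a small difference, from 12.31 and 12.25 with USA2 to 12.51 and 12.51 with USA7. Its difference was 0.23 (SE 0.08, adjusted p = 0.75 by limma). Below OYE3 stood a group of oxidoreductase genes between 0.73 and 0.93 that were not called over all arrays. YCR102C read 9.67 and 9.80 with USA2 and 10.59 and 10.75 with USA7 (difference 0.93, SE 0.22), and its close relative YLR460C read 9.76 and 10.01 and then 10.66 and 10.85 (0.87, SE 0.20). How the probes divide between these related genes was not examined. HBN1, YPL088W and YML131W differed by 0.77, 0.73 and 0.73 (SE 0.19 each), with adjusted p of 0.312 to 0.314. GRE2, a methylglyoxal reductase gene, differed by 0.48 (SE 0.12). Within batch 2, YCR102C, YLR460C, HBN1 and YML131W were called too. This brought the list to 5 of 36 probe sets higher and 0 lower, against 0.315% and 0.0525% of all. The intervals of all members of these 2 lists are plotted together.

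**Figure D3:**
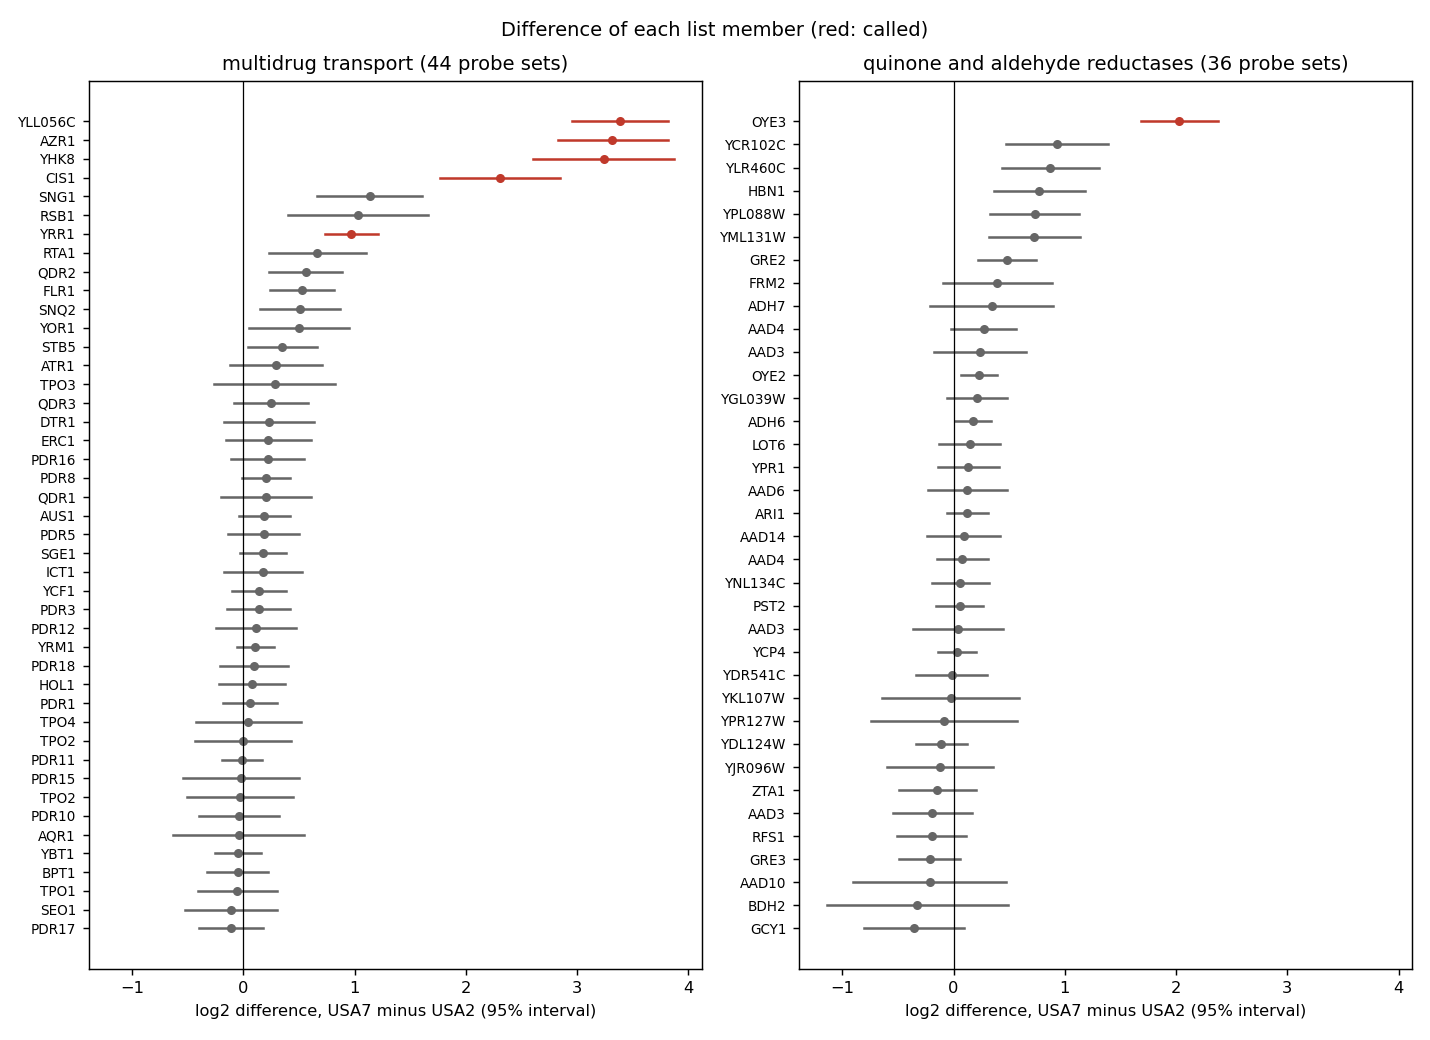
Log2 difference of USA7 minus USA2 (horizontal) with its 95% interval from limma for each probe set (vertical) of the multidrug transport list (left, 44) and of the quinone and aldehyde reductase list (right, 36). Called probe sets are red. In the left panel 4 intervals lie above 1.7, and in the right panel only that of OYE3 lies above 1.5.

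Of the pyrimidine genes, FUI1 was the 1 called member of 18 probe sets (5.56%, against 0.175% of all). The median log2 difference of the list was 0.12. The strain lacks URA3 and took up uracil from the medium, for which it uses the uracil permease Fur4. FUR4 read 8.07 and 8.22 with USA2 and 9.04 and 8.99 with USA7, a difference of 0.87 (SE 0.22, adjusted p = 0.312 by limma) that was close to that of FUI1 in size and was called within batch 2 (SE 0.14, adjusted p = 0.0221). URA2, which encodes the enzyme of the first steps of pyrimidine synthesis, differed by 0.42 (SE 0.10, adjusted p = 0.28). The lowest value was that of FUR1, at -0.18.

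Genes of inositol and phospholipid metabolism did not differ between the 2 extracts in any called case. Of the 35 probe sets of this list, 0 were called and 0 passed an unadjusted p under 0.05, and for all 35 the 95% interval lay within 1 of 0. Over all 5716 probe sets, 0.175% were called, 230 passed an unadjusted p under 0.05 and 96.8% had such an interval. Counts of 0 among 35 are near these shares and do not set this list apart. INO1, which encodes the enzyme that makes inositol from glucose 6-phosphate, read 7.80 and 7.58 with USA2 and 8.16 and 8.03 with USA7. Its difference of 0.40 had a 95% interval of -0.19 to 0.99, and all 4 values were below the range of untreated cells (9.94 to 11.09). ITR1, the inositol transporter gene, differed by 0.07 (95% interval -0.25 to 0.38). CHO1, the phosphatidylserine synthase gene, also differed by 0.07 (-0.21 to 0.34), and OPI1, the gene of the repressor, by -0.07 (-0.31 to 0.17). For these 3 genes a difference of 0.5 in either direction lay outside the interval.

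Methionine and sulfate assimilation genes were the group with the lowest single values among the biosynthetic lists. Over all arrays 0 of 43 probe sets were called, with a median log2 difference of -0.16. At an unadjusted p under 0.05 by limma, 1 of the 43 was higher and 7 were lower. Over all 5716 probe sets these counts were 160 higher and 70 lower. MET2, which encodes the acetyltransferase that starts the homocysteine branch, read 8.34 and 8.12 with USA2 and 7.40 and 7.06 with USA7, a difference of -0.997 (SE 0.29, adjusted p = 0.432 by limma). MET32, the gene of a zinc-finger regulator of sulfur metabolism, read 5.88 and 6.12 with USA2 and 5.19 and 5.01 with USA7, a difference of -0.90 (SE 0.18, adjusted p = 0.069). In both genes the USA7 arrays lay below both USA2 arrays. Within batch 2, MET2, MET32 and MET3, the ATP sulfurylase gene (-0.48), were called lower with USA7 (adjusted p = 0.0353, 0.0131 and 0.0481), and these were the 3 lower calls of that fit.

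Genes of the general stress response and of glycogen and trehalose metabolism had mostly negative differences, whose size depended on the USA2 array used. Of 51 probe sets of the stress list, 44 were negative, 0 were called, and the median log2 difference was -0.26. The list median, as a log2 signal, was 11.39 and 10.98 on the USA2 arrays and 11.07 and 11.09 on the USA7 arrays, and 49 of the 51 probe sets were higher on the first USA2 array than on the second. Both USA7 arrays were below both USA2 arrays for 31 of the 51 and above them for 2. Over all 5716 probe sets they were below for 1117 and above for 1290. Without the first USA2 array the median difference was -0.09, and without the second it was -0.46. FMP45, which encodes a membrane protein of the Sur7 family, had log2 signals of 10.44 and 9.35 with USA2 against 8.36 and 9.04 with USA7 (difference -1.20, SE 0.46). For glycogen and trehalose, 25 of 28 probe sets were negative, 0 were called, and all 28 were higher on the first USA2 array. Their list median was 10.39 and 10.18 on the USA2 arrays and 10.01 and 9.86 on the USA7 arrays, and both USA7 arrays were below both USA2 arrays for 16 of the 28 and above them for 2. The median difference was -0.20, or -0.10 without the first USA2 array and -0.41 without the second. GDB1, the glycogen debranching enzyme gene, read 10.73 and 10.22 with USA2 and 9.77 and 9.70 with USA7 (-0.74, SE 0.37), and TSL1, a subunit gene of the trehalose synthase, differed by -0.40 (SE 0.20).

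The USA7 duplicates also differed from each other in part. On the first USA7 array 98 probe sets were more than 0.5 lower, and 35 more than 0.5 higher, than on the second (2.33% in all). CYS3, a cystathionine lyase gene, read 12.02 and 11.88 with USA2 but 11.14 and 12.003 with USA7. THR1, the homoserine kinase gene, read 11.84 and 11.79 and then 11.08 and 11.94. Both were called lower only in the fit without the second USA7 array, together with the cell wall protein gene CCW14 and no other gene, so those 3 calls rest on the first USA7 array alone. None of the 10 called probe sets had a gap over 0.25 between the duplicates of either extract.

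The remaining lists showed little difference. Of 37 lists, 34 held no called member, and their medians ranged from -0.26 to 0.11. These 34 include the general stress, glycogen and trehalose, and methionine lists above, which had the lowest medians. Outside those lists the lowest median was -0.08, that of the TCA cycle and respiratory chain. Cytoplasmic ribosomal protein genes were the most uniform group, with 148 probe sets between -0.12 and 0.12 and a median of -0.001. Ribosome biogenesis (119 probe sets, median 0.03), proteasome (39, 0.03), heat shock and protein folding (39, -0.04), ergosterol synthesis (36, -0.02) and respiratory genes (57, -0.08) also held none. GCN4, the gene of the activator of amino acid synthesis, read 13.56 and 13.57 with USA2 and 13.51 and 13.60 with USA7. Of the members with the largest difference in their lists, the zinc-responsive IZH4 differed by 0.75 (SE 0.29), the sporulation gene DIT1 by 0.73 (SE 0.19, called within batch 2 at an adjusted p = 0.0353), THI4 of thiamine synthesis by 0.65 (SE 0.24) and the glucose transporter gene HXT2 by -0.57 (SE 0.14), none of them called over all arrays. The plot of all lists shows the differences of their members.

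**Figure D4:**
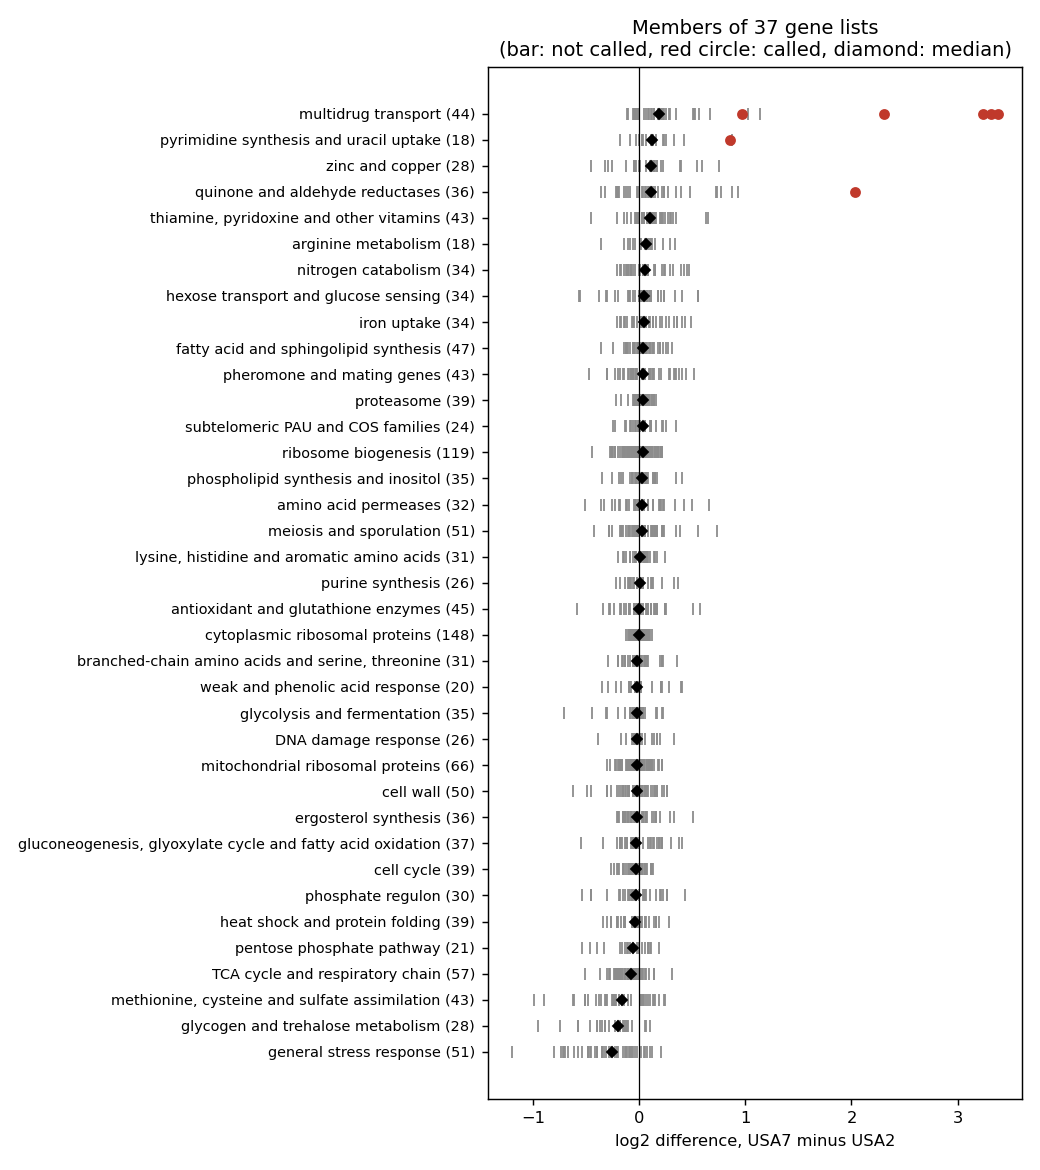
Log2 difference of USA7 minus USA2 (horizontal) of every member of 37 gene lists (vertical, with the number of probe sets), ordered by the list median (diamond). Grey bars are members that were not called and red circles the called members, which stand in 3 lists only. YLR046C, YOR161C-C and 1776865_at are in no list.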

How the data were processed

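For each culture, biotin-labelled RNA went onto 1 Affymetrix GeneChip Yeast Genome 2.0 array. The authors deposited log2 signals processed by RMA (background correction, quantile normalization, summarization). RMA and limma are named in the submitters' processing notes, with versions not given in the sources used here. Quantile normalization hides any shift shared by most genes, and the number of arrays limits the precision. The values of 18 arrays were used as deposited, with 0 columns of per-sample values unmapped. Of 5900 probe sets, 184 controls were set aside. The platform annotation, updated for 12 symbols, gave 5498 of the 5716 tested probe sets 1 gene symbol. The 132 probe sets ending in _s_at, _x_at or _a_at can bind several transcripts.

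USA7 minus USA2 was tested with lmFit and eBayes (limma 3.58.1, R 4.3.3) in a model of 7 condition means without batch or replicate terms, leaving 11 residual degrees of freedom. The test was two-sided, with a threshold of 0.05 after Benjamini-Hochberg adjustment. In simulated data with this comparison's spread, 200 of 5716 probe sets were shifted at once, 50 each by 0.5, 1, 2 and 3. The test recovered 44% of shifts of 0.5, 86% of shifts of 1 and 100% of the larger ones. There were 10 false calls among 5516 unchanged probe sets. With many more probe sets changed than the 10 called in the data, the adjustment was less strict, so these shares can overstate the recovery in the data.

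The comparison and the 37 gene lists were chosen with earlier results of these data known. Genes picked for naming were the called genes (at most 15 per direction) and 17 preset genes. Each list added up to 4 called members or else its member of largest absolute difference. For several lists without a call the text leaves that member out, for example GIP2 (-0.957) for glycogen and trehalose. All other genes named were chosen after their values were seen. In all, 32 alternatives were run. Same-numbered arrays of the 2 extracts did not deviate together (correlation -0.05), and the main fit did not pair them. This value cannot show whether same-numbered cultures were handled together.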

Additional observations from a re-analysis of the deposited data

Results flagged for a closer look

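In groups of 4 arrays, the called probe sets were searched for 1 array far from the other 3, a search that chance passes in about 1 of 20 groups. Of 20 groups (control and CHINA8 for each of the 10 probe sets), 2 held such an array, and neither array enters the difference between USA7 and USA2. AZR1 had a log2 signal of 5.72 on 1 CHINA8 array, against 6.51 to 6.55 on the other 3. OYE3 had a log2 signal of 6.58 on 1 array of untreated cells, against 6.15 to 6.20 on the other 3.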

How the results depend on the processing

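The counts of 10 called, 10 higher, 0 lower and 7 over 2-fold were the same with equal array medians, with quantile normalization of the tested probe sets, with Affymetrix controls kept and with the replicate block (10, 10, 0 and 7). Restricting the test to probe sets above the 20th percentile of mean signal left 4 called, all higher, 2 of them over 2-fold, and above the median it left 1 called, higher, and 0 over 2-fold, because these filters remove 6 and 9 of the 10 as dim over the 18 arrays. Batch as a term gave 16 called and 2 lower. The 14 arrays of batch 2 alone gave 21 called, 18 higher and 3 lower. Without the control and CHINA8 arrays of batch 2 there were 25 called, 22 higher and 3 lower, and with the 14 extract arrays 13 called and 3 lower. All 10 were called again in the first 3 of these fits and 9 in the last, and the cause of the added calls was not tested. The 4 arrays alone, no moderation and the Bonferroni correction each gave 8 called. Leaving out each of the 18 arrays in turn gave 7 to 13 called, 7 to 12 higher, 0 to 3 lower and 6 to 8 over 2-fold, where a lone array of an extract was assumed to vary like the other groups. Called fell to 7 without the first USA2 or the first USA7 array.

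Of 98 genes and probe sets examined, 5 changed sign in some alternative, none of them called. With either USA7 array left out, the differences ranged from -0.814 to 0.084 for ARG3, -0.583 to 0.046 for CCW14, -0.81 to 0.051 for CYS3, -0.729 to 0.131 for THR1 and -0.049 to 0.037 for GCN4, and with equal medians GCN4 was at 0.007. With 2 arrays per extract, 44% of simulated differences of 0.5 were recovered where 200 probe sets were shifted at once. Recovery in the data can be lower, so uncalled genes are not shown to be equal.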

Other observations

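Some large differences outside the gene groups above did not pass the test. HBT1, which encodes a protein of the mating projection, had the largest uncalled difference at -1.29 on the log2 scale (SE 0.54, adjusted p = 0.999 by limma), with log2 signals of 8.75 and 8.16 with USA2 and of 6.97 and 7.35 with USA7. PLB1, a phospholipase B gene, read 11.08 and 10.88 with USA2 and 11.61 and 11.74 with USA7, a difference of 0.70 (SE 0.15, adjusted p = 0.169) that was called over the 14 extract arrays (adjusted p = 0.0491).

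Further genes were called without the control and CHINA8 arrays of batch 2. These included NRG1, the gene of a glucose-dependent repressor (0.55, adjusted p = 0.00939), the aquaporin gene AQY2 (0.57, adjusted p = 0.0323) and SMP1, a transcription factor gene (0.63, adjusted p = 0.019), all higher with USA7. STR3, a cystathionine lyase gene of sulfur metabolism, was called lower in that fit (-0.62, adjusted p = 0.00597) and over the 14 extract arrays (adjusted p = 0.00396). It read 10.16 and 10.20 with USA2 and 9.52 and 9.59 with USA7, so that the extracts did not overlap. NRG1, STR3 and PLB1 were also called when 1 array of untreated cells was left out (adjusted p = 0.0482, 0.00139 and 0.0387).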
